A study of Homo sapiens with 12 samples.

Results

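The 10 genes described here are target genes of the hypoxia-inducible factor HIF2 that are known from clear cell renal cell carcinoma (ccRCC): VEGFA, ADM, TGFA, STC2, CCND1, NDRG1, CA12, CA9, LOX and CXCR4. The rule lists them by name and uses no measured value, although the list was drawn up with earlier results of these data known. They make up 10 of the 38021 gene names in the deposited RNA sequencing table. RNA came from 786O, a ccRCC line that lacks functional VHL, and from WT8, which are 786O cells that express wildtype VHL. Each line had been transduced with a lentiviral pLKO.1 vector that encoded a scrambled hairpin (shControl) or a hairpin against BMAL1 (shBMAL1), and was kept under puromycin. The 4 groups, 786O shControl, 786O shBMAL1, WT8 shControl and WT8 shBMAL1, had 3 biological replicates each. The lines were compared as cultured lines, so an effect of VHL and any other difference between 786O and WT8 cannot be told apart, and the labels do not distinguish hairpins against BMAL1.

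HIF2 is a pair of proteins, the oxygen-regulated subunit HIF2α, encoded by EPAS1, and a constitutive partner such as ARNT. The VHL protein is the substrate receptor of a ubiquitin ligase that marks hydroxylated HIFα for destruction, so loss of VHL, the hallmark of ccRCC, leaves HIF2α in place at normal oxygen. HIF binds the core sequence RCGTG and raises the transcription of genes for vessel growth, growth factor signalling, pH control, matrix cross-linking and cell cycle entry. BMAL1, listed as ARNTL, is a circadian clock protein of the same bHLH-PAS family as ARNT, and pairs with CLOCK on the related sequence CACGTG. The comparisons ask how much of each target transcript remains when BMAL1 is depleted, with and without VHL.

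Total counts were 33182005 to 36477484 per library, and replicates correlated with r of 0.996 to 0.997 on log2 CPM across genes, where CPM is a library's count at a shared depth, set by TMM. The hairpin target ARNTL had 12.1 ± 1.37 CPM (SD, n = 3) in 786O shControl and 3.94 ± 0.22 in 786O shBMAL1. In WT8 it had 9.24 ± 0.966 CPM with the control hairpin and 1.66 ± 0.236 with shBMAL1. The VHL transcript, at 18.8 ± 1.58 CPM in 786O shControl, reached 981 ± 56.5 CPM in WT8 shControl and 647 ± 15.1 in WT8 shBMAL1, and its log2 change with shBMAL1 in WT8 was -0.60 ± 0.05 (SE, adjusted p = 6.67e-13). The renal epithelial marker PAX8 was present in all 12 libraries, with 10745 to 50597 counts. It was 1 of 8 such markers, of which LHX1 had the fewest counts, at 65 to 477. With shControl, 4 of the 8 were called higher and 4 lower in WT8 than in 786O, beside 39.3% and 40.2% of all genes. The 4 leukocyte markers summed to 4 to 17 counts per library, with CD14 at 2 to 17, CD3E at 0 throughout and PTPRC at most 1. The 4 endothelial markers summed to 1 to 25 counts in 786O and 27 to 64 in WT8, with PECAM1 at most 32, VWF at most 22 and CDH5 at most 9. The 4 fibroblast markers summed to 98 to 431 counts, with COL1A1 at 62 to 332 and PDGFRB at 20 to 212, while DCN had at most 2. The part of these markers in the results was not tested.

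RefSeq promoter windows (build GRCh38.p14) were at hand for 7 of the 10 genes, in 12 windows, and were read over the 250 bases before each transcript start. VEGFA, CCND1 and NDRG1 had no entry. The windows printed here are those of CA9, which had no counts in WT8, of ADM, whose change with shBMAL1 differed in direction between the lines, of STC2, whose change was smaller in WT8, and of LOX, which was low in WT8 under both hairpins. Capitals mark the HIF core ACGTG or GCGTG on either strand (CACGT or CACGC where it lies on the other strand), and each sequence runs 5′ to 3′ on the strand of the gene up to the base before the start.
CA9, chr9:35673678-35673927, plus strand: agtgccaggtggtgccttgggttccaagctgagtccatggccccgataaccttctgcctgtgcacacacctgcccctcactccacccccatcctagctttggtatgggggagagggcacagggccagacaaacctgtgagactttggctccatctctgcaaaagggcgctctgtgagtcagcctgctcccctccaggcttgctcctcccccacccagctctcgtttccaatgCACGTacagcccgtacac
ADM, chr11:10304823-10305072, plus strand: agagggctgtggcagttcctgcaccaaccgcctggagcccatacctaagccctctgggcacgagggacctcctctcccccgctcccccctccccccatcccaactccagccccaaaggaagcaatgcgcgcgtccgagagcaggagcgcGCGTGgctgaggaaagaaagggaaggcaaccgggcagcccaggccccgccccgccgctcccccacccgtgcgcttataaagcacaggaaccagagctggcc
STC2, chr5:173328415-173328664, minus strand: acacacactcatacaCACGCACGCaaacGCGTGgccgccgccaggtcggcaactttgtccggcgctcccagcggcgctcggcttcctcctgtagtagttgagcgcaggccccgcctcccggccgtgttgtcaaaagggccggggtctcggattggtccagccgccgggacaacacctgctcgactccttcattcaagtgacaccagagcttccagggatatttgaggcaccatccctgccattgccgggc
LOX, chr5:122078260-122078509, minus strand, the most upstream of 3 windows: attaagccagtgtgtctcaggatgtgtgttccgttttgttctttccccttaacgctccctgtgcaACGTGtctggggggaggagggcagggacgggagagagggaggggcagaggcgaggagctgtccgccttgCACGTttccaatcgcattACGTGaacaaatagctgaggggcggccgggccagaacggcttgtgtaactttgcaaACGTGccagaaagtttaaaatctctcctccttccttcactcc

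The CA9 window held 1 match, ACGTG on the other strand, 18 to 14 bases before the start. ADM held 1 GCGTG, STC2 held 3 GCGTG, a pair of which share a base on the other strand, and the LOX window shown held 4 ACGTG. Of the windows not shown, CA12 held 1 GCGTG, TGFA 0 and 1, CXCR4 1, 0 and 2, and the other LOX windows 2 each. Those LOX windows overlap each other and hold the same 2 sites. Among 35116 RefSeq windows of the same length, 43.2% held either core, 18.5% held ACGTG and 32.2% held GCGTG. The clock motif CACGTG, which contains ACGTG, was in 6.34% of those windows and in 0 of the 12 windows of these genes. These matches describe letters only, and no binding was measured in these files.

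The genes spanned a wide range of abundance. Per kilobase of the canonical transcript (GENCODE version 44), the levels in 786O shControl were 71.7 ± 1.91 CPM per kb for NDRG1 and 70.7 ± 1.28 for CCND1, which did not differ beyond their spread. The order of genes rests on that length. All annotated exons together cover 12002 bases for NDRG1, against 3025 in its canonical transcript, and 4761 against 4238 for CCND1. CA12 followed at 45.5 ± 1.44 CPM per kb and VEGFA at 43.5 ± 1.18, again within their spread, and ADM at 34.9 ± 1.49 and STC2 at 33.1 ± 0.637. TGFA was lower at 20.2 ± 0.547 CPM per kb. LOX, at 0.573 ± 0.129 CPM per kb, CA9, at 0.216 ± 0.171, and CXCR4, at 0.0753 ± 0.0712, were far lower. In 786O shControl, LOX had 83 to 128 counts per library, CA9 4 to 22 and CXCR4 2 to 9, where the floor used for bounds was 3 counts, or 0.0797 to 0.0875 CPM. In WT8 shBMAL1, CCND1 led at 28.5 ± 0.4 CPM per kb and NDRG1 had 17.7 ± 0.519. Of the 10 genes, 9 had enough counts to be tested, and CXCR4 did not.

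**Figure D1:**
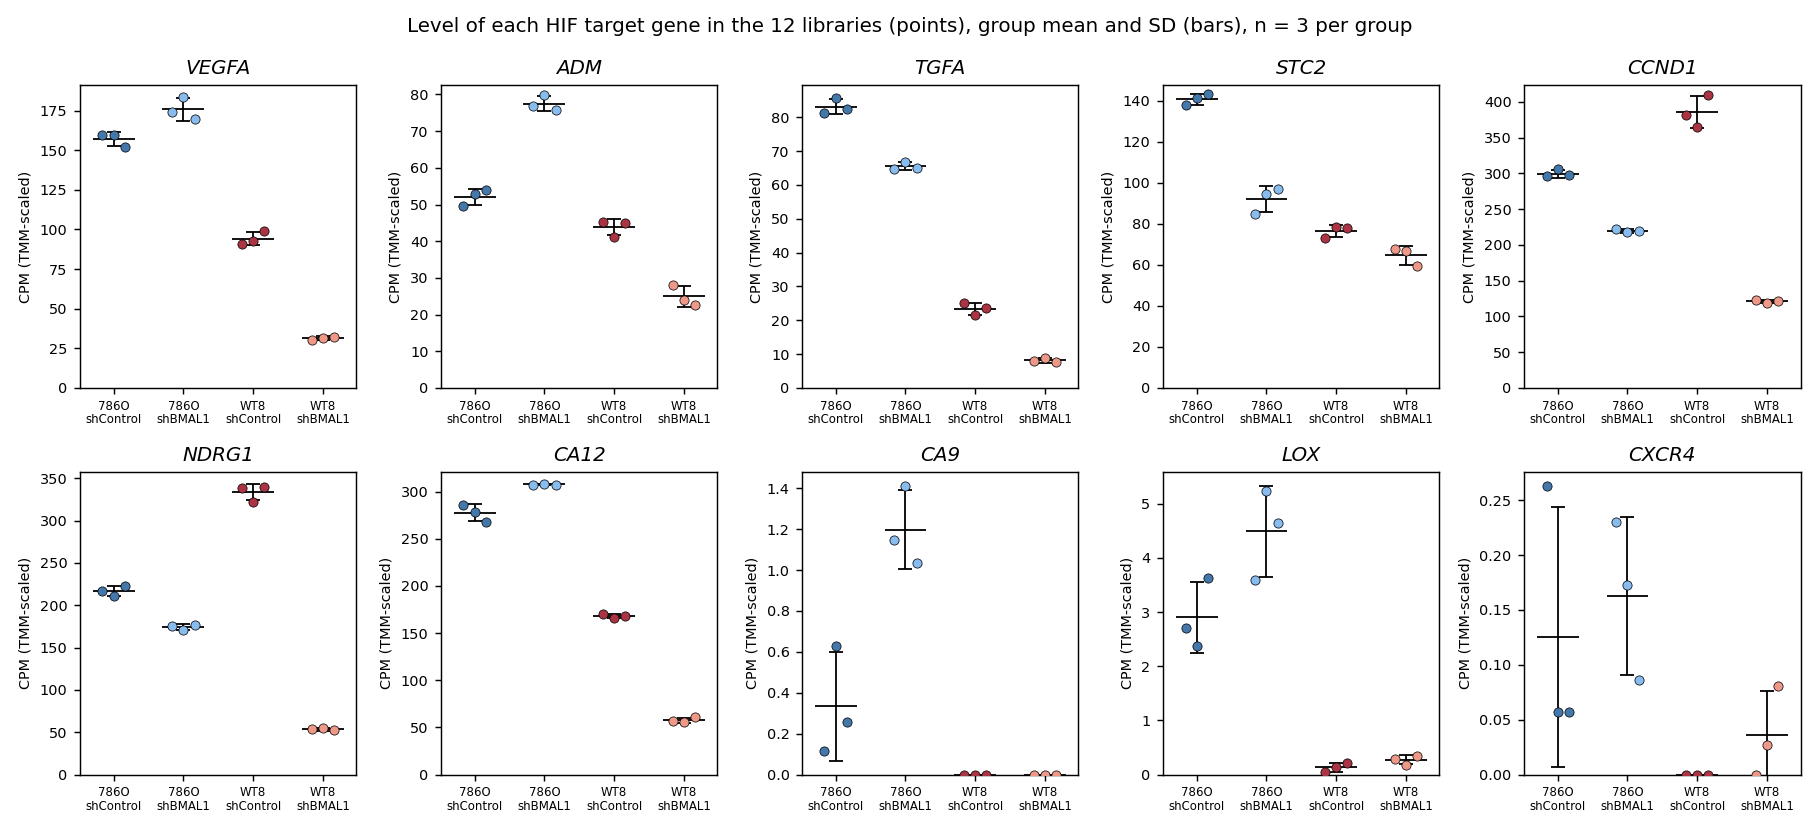
CPM of each of the 10 genes on a linear axis from 0, with a point per library, the group mean as a horizontal line and the SD as error bars (n = 3 per group). WT8 shBMAL1 was the lowest group for VEGFA, ADM, TGFA, STC2, CCND1, NDRG1 and CA12, CA9 had no counts in either WT8 group, and CXCR4 stayed under 0.3 CPM in every library.

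In WT8, 7 of the 9 genes tested were called lower with shBMAL1 than with shControl. NDRG1 fell 6.22-fold, and CCND1, VEGFA, CA12 and TGFA fell by between 2.87-fold and 3.19-fold. ADM fell 1.76-fold and STC2 1.18-fold, LOX was called higher on few counts, and CA9 had 0 counts in all 6 WT8 libraries. Across all 16838 genes tested, 36.9% were called lower and 32.9% higher at an adjusted p under 0.1, so calls in either direction were common. The median log2 change of the 9 genes was -1.52, or -1.53 over the 8 without CA9, beside -0.04 for all genes. Upper quartile scaling moved the latter to -0.12, and the 7 genes were lower under every scaling tried.

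In 786O, the same 9 genes were called and split, 5 higher and 4 lower. ADM rose 1.49-fold, CA9 3.55-fold, LOX 1.54-fold, VEGFA 1.12-fold and CA12 1.11-fold. STC2 fell 1.53-fold, CCND1 1.36-fold, TGFA 1.27-fold and NDRG1 1.24-fold. Over all genes, 24.5% had a call upward and 24.4% downward. Most of these changes were slight. Tested against a fold of 1.5 instead of against no change, 1 gene, CA9, remained called in 786O, where 6 remained in WT8. The share of all genes that remained called at that fold was not counted. Against no change, calls over all genes were also more frequent in WT8 than in 786O. The shBMAL1 comparisons in 786O and WT8 share no library. Among the 8 genes called in both, 5 changed in the same direction, which is 62.5%, beside 68.2% of the 6414 genes called in both over the whole table.

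The interaction, obtained by subtracting the effect of shBMAL1 in 786O from its effect in WT8 (log2 scale), was called for 7 genes. It was negative for 6, NDRG1, VEGFA, CA12, ADM, CCND1 and TGFA, and positive for STC2. Over all genes, 28.5% had a negative and 27.4% a positive call. The median interaction of the 9 genes was -1.39, or -1.31 over the 8 without CA9, beside -0.03 for all genes. The hairpin target was not depleted to the same degree in the lines. ARNTL had log2 changes with shBMAL1 of -1.62 ± 0.13 in 786O (adjusted p = 4.90e-13) and -2.48 ± 0.14 in WT8 (adjusted p = 2.66e-17). The part of this difference in the interactions was not tested.

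**Figure D2:**
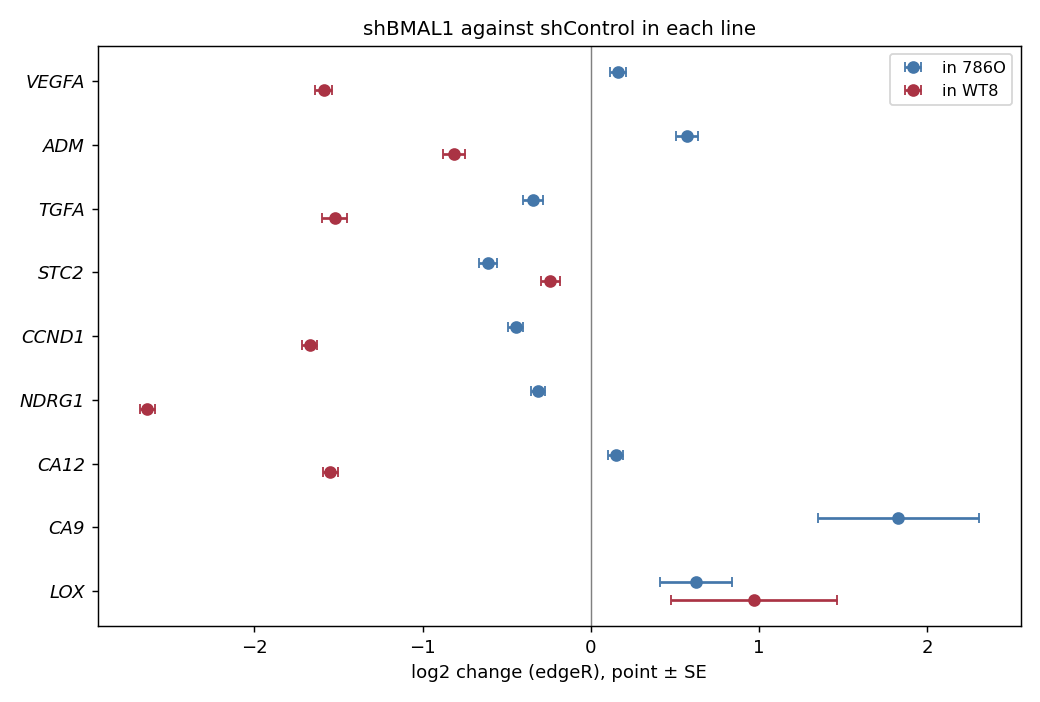
Log2 change with shBMAL1 against shControl (horizontal axis, point ± SE, edgeR) for 9 genes in 786O and in WT8. NDRG1 lies at -2.64 in WT8 and -0.32 in 786O, VEGFA, CA12 and ADM lie on opposite sides of 0 in the lines, and CA9 has no point in WT8 because it had no counts there.

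WT8 cells differed from 786O for all 9 genes at each hairpin. With shControl, 7 were lower in WT8 and 2, CCND1 and NDRG1, were higher, where 40.2% of all genes were called lower and 39.3% higher. With shBMAL1, all 9 were lower, where 37.0% of all genes were called lower and 36.0% higher. The median log2 difference of the 9 genes was -0.74 with shControl and -2.42 with shBMAL1, beside 0.00 for all genes in each. Scaling by library totals moved the median of all genes to 0.12 and 0.11, and no gene changed direction. The comparisons between lines with shControl and with shBMAL1 share no library, but each shares libraries with the shBMAL1 comparisons.

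**Figure D3:**
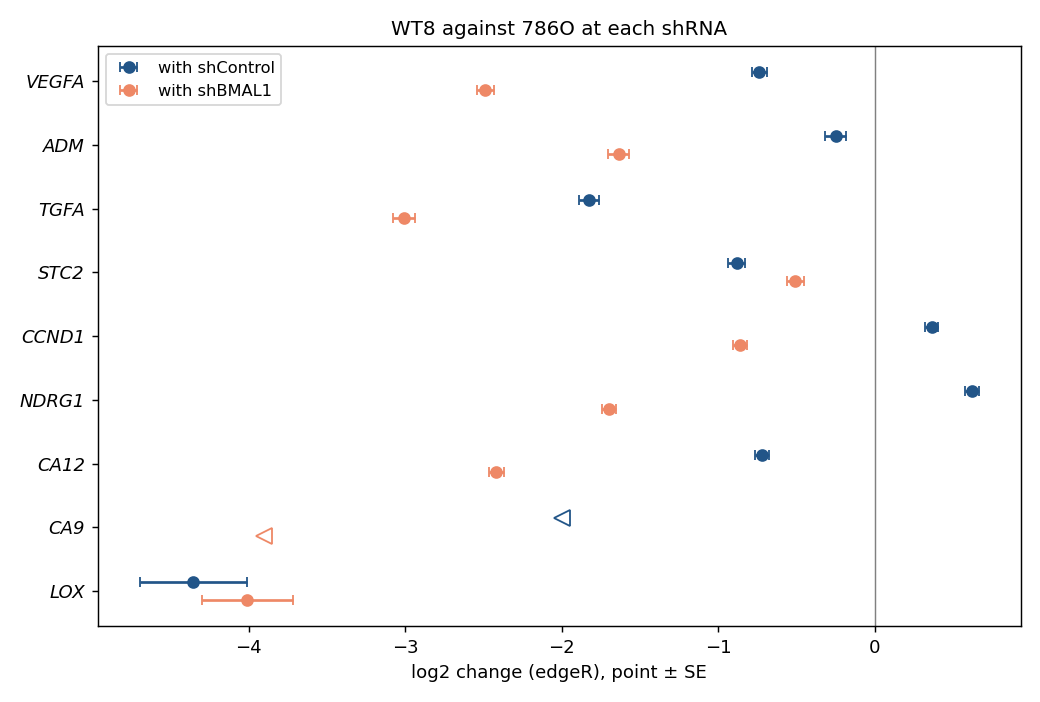
Log2 difference of WT8 against 786O (horizontal axis, point ± SE, edgeR) with shControl and with shBMAL1. Open triangles mark CA9, for which only a bound can be given (3 counts per library in WT8). CCND1 and NDRG1 lie right of 0 with shControl and left of 0 with shBMAL1.

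The results are ordered by role, from secreted factors to cell cycle, stress, pH, matrix and chemokine genes. VEGFA encodes the vascular endothelial growth factor that drives vessel sprouting (GRCh37 chromosome 6, 43737921 to 43754224, plus strand). Its level was 159.8, 159 and 152 CPM in the 786O shControl libraries and 174, 183 and 169.7 in 786O shBMAL1. In WT8 it was 90.8, 92.7 and 98.9 CPM with shControl and 30.0, 31.7 and 32.3 with shBMAL1. The 4 groups did not overlap, and WT8 shBMAL1 was 5.61-fold below 786O shBMAL1. The log2 change with shBMAL1 was 0.16 ± 0.05 in 786O (adjusted p = 0.00537) and -1.59 ± 0.05 in WT8 (adjusted p = 8.45e-25), with an interaction of -1.75 ± 0.07 (adjusted p = 9.16e-22). Against 786O, WT8 was lower by a log2 difference of -0.74 ± 0.05 with shControl (adjusted p = 3.34e-16) and -2.49 ± 0.05 with shBMAL1 (adjusted p = 5.08e-31). NRP1, a co-receptor for VEGFA, also moved in opposite directions, with a log2 change of 1.20 ± 0.04 in 786O (adjusted p = 1.75e-22) and -1.28 ± 0.04 in WT8 (adjusted p = 4.73e-24). NRP2, a related co-receptor, fell in both lines, with log2 changes of -0.37 ± 0.05 in 786O (adjusted p = 7.04e-08) and -1.69 ± 0.07 in WT8 (adjusted p = 6.57e-22).

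ADM encodes adrenomedullin, a vasodilator peptide (chromosome 11, 10326620 to 10328944, plus strand). It had 49.7, 52.8 and 53.9 CPM in 786O shControl and 77.0, 79.7 and 75.8 in 786O shBMAL1. The WT8 libraries had 45.3, 41.2 and 44.9 CPM with shControl and 28.1, 24.0 and 22.7 with shBMAL1. All shBMAL1 libraries of 786O were above, and all those of WT8 below, the controls of their own line. These are log2 changes of 0.57 ± 0.06 (adjusted p = 2.42e-09) and -0.81 ± 0.07 (adjusted p = 4.90e-13), and the interaction was -1.39 ± 0.09 (adjusted p = 3.16e-15). With shControl the lines differed little, by a log2 difference of -0.25 ± 0.06 (adjusted p = 7.59e-04), and with shBMAL1 by -1.64 ± 0.07 (adjusted p = 4.70e-22).

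TGFA encodes transforming growth factor alpha, a ligand of the EGF receptor (chromosome 2, 70674416 to 70781325, minus strand). Levels were 81.3, 85.7 and 82.4 CPM in 786O shControl and 64.8, 66.8 and 65.2 in 786O shBMAL1. The WT8 libraries held 25.1, 21.6 and 23.5 CPM with shControl and 7.97, 8.93 and 7.55 with shBMAL1. The groups stepped down in that order without overlap. TGFA was lower with shBMAL1 than with shControl in both lines, with log2 changes of -0.34 ± 0.06 in 786O (adjusted p = 1.51e-05) and -1.52 ± 0.07 in WT8 (adjusted p = 2.19e-19). The interaction was -1.18 ± 0.10 (adjusted p = 7.45e-13). WT8 was 3.55-fold lower than 786O with shControl (adjusted p = 4.22e-24) and 8.04-fold lower with shBMAL1 (adjusted p = 3.86e-29). The other tested ligands of this receptor were mixed. With shBMAL1, AREG rose by a log2 change of 1.72 ± 0.12 in 786O (adjusted p = 1.15e-14) and 1.18 ± 0.28 in WT8 (adjusted p = 3.30e-04), and EREG by 0.79 ± 0.07 (adjusted p = 4.14e-11) and 1.27 ± 0.10 (adjusted p = 8.31e-14). EGF fell in WT8 as TGFA did, with a log2 change of -1.76 ± 0.14 (adjusted p = 1.40e-13), and its change in 786O was -0.27 ± 0.14 (adjusted p = 0.125). HBEGF rose in 786O by 0.56 ± 0.09 (adjusted p = 1.46e-06) and was not called in WT8, at -0.18 ± 0.09 (adjusted p = 0.10005). BTC was not called in either line. The receptor EGFR fell in both, with log2 changes of -0.46 ± 0.06 in 786O (adjusted p = 1.06e-06) and -0.67 ± 0.06 in WT8 (adjusted p = 6.27e-10).

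STC2, stanniocalcin 2, is a secreted glycoprotein induced by cell stress (chromosome 5, 172741726 to 172755450, minus strand). Its level was 138, 142 and 143 CPM in 786O shControl and 84.8, 94.4 and 97.2 in 786O shBMAL1. WT8 had 73.2, 78.5 and 77.8 CPM with shControl and 67.9, 67.0 and 59.5 with shBMAL1. The groups did not overlap, but the step within WT8 was narrow. The fall with shBMAL1 was larger in 786O, at -0.61 ± 0.05 (adjusted p = 1.07e-11), than in WT8, at -0.24 ± 0.06 (adjusted p = 2.61e-04), and the interaction was 0.37 ± 0.08 (adjusted p = 1.12e-04). WT8 was lower than 786O by a log2 difference of -0.88 ± 0.05 with shControl (adjusted p = 8.01e-17) and -0.51 ± 0.05 with shBMAL1 (adjusted p = 3.37e-10). Its relative STC1 fell 2.07-fold in 786O (adjusted p = 1.29e-05) while the control libraries of WT8 had 35 to 56 counts of it and those with shBMAL1 had 0 to 3.

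CCND1 encodes cyclin D1, the partner of CDK4 and CDK6 in cell cycle entry (chromosome 11, 69455924 to 69469242, plus strand). It had 296, 306 and 297 CPM in 786O shControl and 223, 217 and 219.8 in 786O shBMAL1. WT8 held 382, 365 and 409 CPM with shControl and 122, 119 and 121 with shBMAL1. WT8 shControl was the highest group and WT8 shBMAL1 the lowest, with no overlap. The log2 change with shBMAL1 was -0.45 ± 0.04 in 786O (adjusted p = 1.17e-10) and -1.67 ± 0.04 in WT8 (adjusted p = 1.80e-27), and the interaction was -1.23 ± 0.06 (adjusted p = 8.64e-19). The difference between lines changed sign with the hairpin, from 0.36 ± 0.04 with shControl (adjusted p = 1.90e-09) to -0.86 ± 0.04 with shBMAL1 (adjusted p = 5.01e-19). In WT8, CDK6 rose with shBMAL1 by a log2 change of 0.97 ± 0.09 (adjusted p = 3.16e-12), CDK4 by 0.48 ± 0.04 (adjusted p = 6.05e-12) and CCND3, a related D-type cyclin, by 0.97 ± 0.07 (adjusted p = 3.80e-15). ORAOV1 (LTO1 in GENCODE), which overlaps CCND1 on the other strand, had 209 to 395 counts per library against at least 4455 for CCND1.

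NDRG1 encodes a stress-induced protein that serves as a marker of hypoxia (chromosome 8, 134249418 to 134314265, minus strand). Its CPM was 216, 211 and 223 in 786O shControl and 176, 171 and 177 in 786O shBMAL1. WT8 had 339, 323 and 339.6 CPM with shControl and 53.4, 55.3 and 52.2 with shBMAL1. As for CCND1, the WT8 control was the highest group and WT8 shBMAL1 the lowest. The change with shBMAL1 was -0.32 ± 0.04 in 786O (adjusted p = 1.66e-07) and -2.64 ± 0.05 in WT8 (adjusted p = 2.10e-32), and its interaction of -2.32 ± 0.06 (adjusted p = 9.35e-27) was the largest in size among the 7 called. Between lines the log2 difference was 0.62 ± 0.04 with shControl (adjusted p = 1.53e-15) and -1.70 ± 0.05 with shBMAL1 (adjusted p = 1.10e-27). Its relatives were mixed. NDRG4, a relative expressed at lower level, fell with shBMAL1 in both lines, with log2 changes of -1.45 ± 0.12 in 786O (adjusted p = 1.56e-12) and -2.67 ± 0.16 in WT8 (adjusted p = 9.90e-17). The means of NDRG3 were higher with shBMAL1. It had 65.2 ± 1.23 CPM (SD) with shControl and 72.9 ± 1.86 with shBMAL1 in 786O, and 85.2 ± 6.00 and 97.4 ± 5.70 in WT8.

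CA12 and CA9 encode membrane carbonic anhydrases that set the pH at the cell surface. CA12 (chromosome 15, 63613577 to 63674045, minus strand) had 286, 279 and 268 CPM in 786O shControl and 307, 308 and 307 in 786O shBMAL1. WT8 held 170.1, 167 and 168 CPM with shControl and 56.8, 55.4 and 60.6 with shBMAL1. Its pattern over the groups was that of VEGFA, with a slight rise in 786O and a steep fall in WT8. The log2 changes with shBMAL1 were 0.15 ± 0.04 (adjusted p = 0.00459) and -1.55 ± 0.05 (adjusted p = 3.71e-26), and the interaction was -1.70 ± 0.06 (adjusted p = 7.30e-23). WT8 was 1.65-fold lower than 786O with shControl (adjusted p = 3.09e-17) and 5.34-fold lower with shBMAL1 (adjusted p = 2.99e-32).

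CA9 (chromosome 9, 35673925 to 35681156, plus strand) was rare. It had 4, 22 and 9 counts in 786O shControl, 40, 49 and 36 in 786O shBMAL1 and 0 in each of the 6 WT8 libraries. The groups of 786O did not overlap. The log2 change in 786O was 1.83 ± 0.48 (adjusted p = 0.00229), and it was 2.65 without replicate 2 of 786O shControl, the control library with 22 counts, and 1.43 without replicate 1. Set against 3 counts per library, CA9 was at least 4.00-fold lower in WT8 than in 786O with shControl and at least 15.0-fold lower with shBMAL1. The first bound rests in part on the control library with 22 counts, and was 2.23-fold without it and up to 5.31-fold without another control library. The second was no lower than 13.6-fold with each 786O shBMAL1 library left out. No fold with shBMAL1 can be given in WT8, and its interaction is not interpretable. ARHGEF39, which overlaps CA9 on the other strand, had 517 to 1322 counts in the WT8 libraries in which CA9 had 0.

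LOX encodes lysyl oxidase, which cross-links collagen and elastin (chromosome 5, 121398890 to 121414108, minus strand). It had 93, 83 and 128 counts in 786O shControl and 125, 182 and 162 in 786O shBMAL1. WT8 had 2, 5 and 8 counts with shControl and 11, 7 and 13 with shBMAL1. The lines were far apart, while the hairpin groups overlapped within each line. WT8 was 20.5-fold lower with shControl (adjusted p = 7.94e-14) and 16.1-fold lower with shBMAL1 (adjusted p = 1.26e-14). The log2 change with shBMAL1 was 0.63 ± 0.21 in 786O (adjusted p = 0.0169), and the call was lost without replicate 2 of 786O shControl (adjusted p = 0.12) or replicate 2 of 786O shBMAL1 (adjusted p = 0.125). In WT8 it was 0.97 ± 0.49 (adjusted p = 0.0822), and the call was lost without replicate 1 or 2 of WT8 shControl (adjusted p = 0.329 and 0.123) or replicate 1 or 3 of WT8 shBMAL1 (adjusted p = 0.144 and 0.233). The interaction of 0.35 ± 0.53 was not called (adjusted p = 0.622). LOXL2, a relative, fell by 2.07 ± 0.05 on the log2 scale with shBMAL1 in WT8 (adjusted p = 3.16e-29). In 786O, LOXL2 had 1029 ± 30.8 CPM (SD) with shControl and 1075 ± 11.3 with shBMAL1. The relatives were mixed in WT8, where LOXL1 had 59.5 ± 0.368 CPM with shControl and 63.9 ± 0.715 with shBMAL1. LOXL3 had 2.09 ± 0.671 and 0.569 ± 0.0544 CPM there. SRFBP1, which overlaps LOX on the other strand, had 652 to 806 counts in the WT8 libraries.

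CXCR4, the receptor of the chemokine CXCL12 (chromosome 2, 136871919 to 136876747, minus strand), was barely detected. It had 9, 2 and 2 counts in 786O shControl, 8, 6 and 3 in 786O shBMAL1, 0 in each WT8 shControl library and 0, 1 and 3 in WT8 shBMAL1. The 786O groups overlapped, and a difference with shBMAL1 was not detectable at this depth. It did not pass the filter on low counts. ACKR3, the other receptor of CXCL12, was detected in 786O, at 11.6 ± 0.875 CPM with shControl, and was 41.4-fold lower in WT8 shControl (adjusted p = 8.03e-21). That fold rests on few counts of ACKR3 in WT8 shControl, 4 to 14 per library.

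Transcripts of HIF subunits were read beside the targets, and no HIF protein was measured in these files. EPAS1 had 192 ± 4.31 CPM in 786O shControl and 182 ± 7.77 in 786O shBMAL1, a log2 change of -0.08 ± 0.04 that was not called (adjusted p = 0.159). In WT8 it went from 259 ± 10.1 CPM to 90.8 ± 1.79, a log2 change of -1.51 ± 0.05 (adjusted p = 8.25e-26), with an interaction of -1.44 ± 0.06 (adjusted p = 1.92e-20). EPAS1 was called lower in WT8 only. VEGFA, CA12 and ADM fell in WT8 and rose in 786O, and CCND1, TGFA and NDRG1 fell more in WT8. STC2 fell more in 786O. The part of EPAS1 in these changes was not tested. HIF1A, the sister subunit, had the directions of ADM, with a log2 change of 0.43 ± 0.06 in 786O (adjusted p = 2.26e-07) and -1.09 ± 0.06 in WT8 (adjusted p = 5.04e-17). ARNT fell in 786O, with a log2 change of -0.47 ± 0.07 (adjusted p = 4.15e-07), and in WT8 its change was -0.11 ± 0.07 (adjusted p = 0.152). EGLN3, a HIF prolyl hydroxylase that is itself a HIF target, had a log2 change of 0.43 ± 0.07 in 786O (adjusted p = 1.93e-06) and -2.67 ± 0.15 in WT8 (adjusted p = 1.07e-17). Of 15 tested genes of the HIF pathway list, 5 were called higher and 3 lower in 786O, beside 24.5% and 24.4% of all genes. In WT8, 6 were higher and 6 lower, beside 32.9% and 36.9%.

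Further HIF targets were examined as lists, to be read against the same shares of all genes called. Of 25 tested targets outside glycolysis, 18 were called lower and 3 higher with shBMAL1 in WT8, with a median log2 change of -0.60, and 12 lower and 7 higher in 786O, with a median of -0.13. ANGPTL4, a secreted regulator of lipoprotein lipase, rose in 786O by 1.07 ± 0.06 (adjusted p = 4.57e-16) and fell in WT8, with a log2 change of -2.93 ± 0.06 (adjusted p = 1.21e-30). IGFBP3, an IGF-binding protein, had log2 changes of 0.52 ± 0.05 in 786O (adjusted p = 4.49e-11) and -2.57 ± 0.06 in WT8 (adjusted p = 1.87e-29). Other genes of this list went otherwise. DDIT4 fell in 786O, with a log2 change of -0.71 ± 0.05 (adjusted p = 4.11e-15). KDM3A rose in WT8, by 0.43 ± 0.06 (adjusted p = 7.09e-08). The 21 glycolytic targets were mixed in WT8, with 9 lower and 8 higher and a median of 0.07. In 786O, 13 of them were lower and 3 higher, with a median of -0.16. Among them, the glucose transporter SLC2A1 fell in WT8, with a log2 change of -1.47 ± 0.05 (adjusted p = 2.87e-23). It was not called in 786O, at 0.07 ± 0.05 (adjusted p = 0.265). The enolase ENO2 fell in both lines, with log2 changes of -1.59 ± 0.06 in 786O (adjusted p = 1.00e-21) and -1.65 ± 0.07 in WT8 (adjusted p = 3.64e-22). Others rose, such as SLC2A3 in WT8, by 0.76 ± 0.20 (adjusted p = 9.84e-04), and SLC16A3 in 786O, by 0.97 ± 0.05 (adjusted p = 1.65e-18). With shControl, 18 of the 21 glycolytic genes were called lower and 1 higher in WT8 than in 786O, and of the 25 other targets 13 were lower and 8 higher, among them ANGPTL4 at 10.8-fold higher (adjusted p = 1.17e-32). Of all genes, 40.2% were lower and 39.3% higher in that comparison. Of the 13 tested ligands, receptors and partners of the 10 genes, 7 were lower and 4 higher with shBMAL1 in WT8, and 6 lower and 3 higher in 786O. Of 18 tested relatives, 8 were lower and 5 higher in WT8, and 4 lower and 6 higher in 786O. The shares over all genes were 36.9% lower and 32.9% higher in WT8, and 24.4% and 24.5% in 786O.

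**Figure D4:**
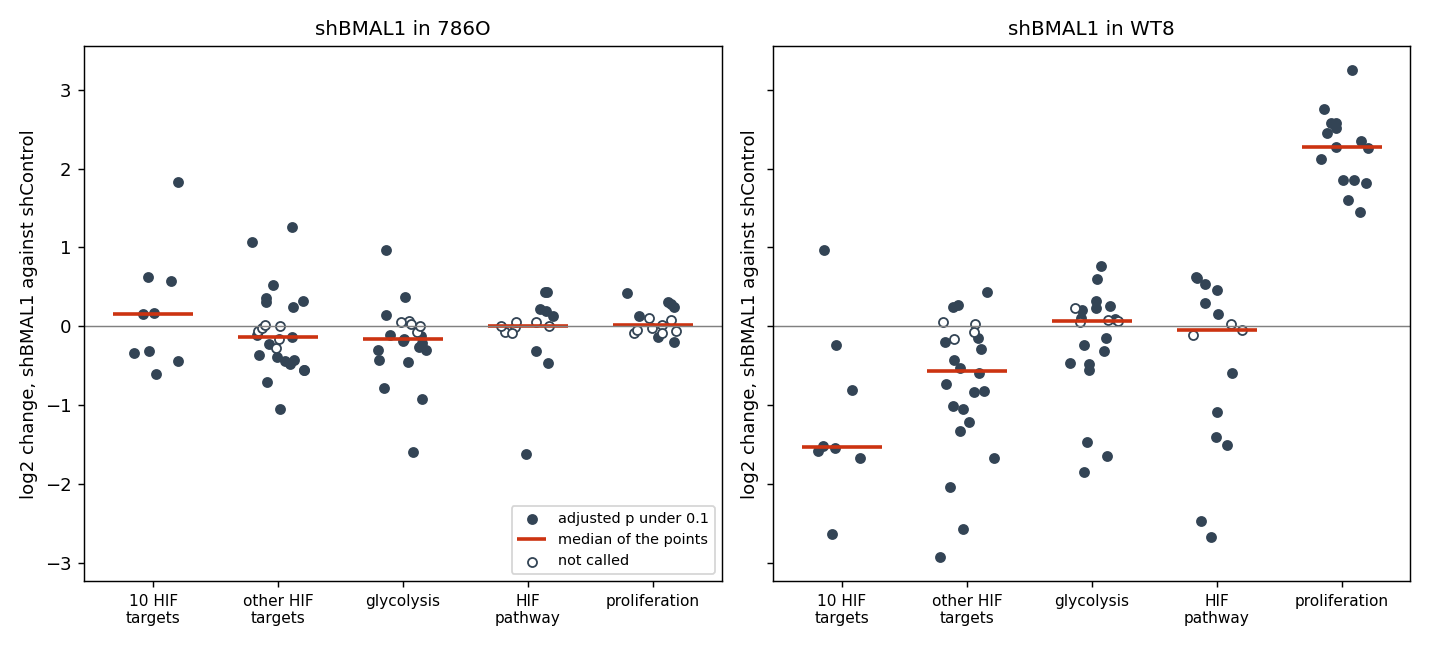
Log2 change with shBMAL1 (vertical axis) for single genes of each list in 786O (left) and WT8 (right), filled where the adjusted p was under 0.1, with the median of the points as a red line. Genes at or under 3 counts in every library of a group are left out, so the left column holds 9 points in 786O and 8 in WT8, and the proliferation genes all lie above 0 in WT8.

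Proliferation genes moved with the WT8 groups. Their summed level was 3419 to 3535 CPM with shControl and 3540 to 3672 with shBMAL1 in 786O, whereas WT8 had 746 to 775 with shControl and 3370 to 3414 with shBMAL1. With shControl, WT8 had less of all 15 than 786O, and all 15 rose with shBMAL1 in WT8, with a median log2 change of 2.27, led by the replication helicase subunit MCM5 at 3.25 ± 0.05 (adjusted p = 5.59e-34). CCND1 and NDRG1, by contrast, were highest in the WT8 control libraries. In 786O, 5 of the 15 were higher and 2 lower with shBMAL1, with a median of 0.02. Of all genes, 24.5% were called higher and 24.4% lower with shBMAL1 in 786O, and 32.9% higher with shBMAL1 in WT8. Between lines with shControl, 40.2% of all genes were called lower in WT8. The part of the difference in proliferation genes in the changes of the 10 targets was not tested.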

How the data were processed

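RNA from 786O and WT8 cells with shControl or shBMAL1 was sequenced as stranded mRNA libraries with paired reads, and 3 biological replicates per group were analysed. According to the study's methods the authors used SeqMan NGen against GRCh37 and took gene counts out of ArrayStar, while the submitters' processing notes name hg38, STAR and DESeq2. Annotation, use of strand and handling of reads with several alignments are not given in the sources used here, so genes that overlap another gene are uncertain. The values, deposited by the authors as estimated counts on a linear scale, held 0.028 in place of 0, which was set to 0, and 5.67% of the other values were not whole and were rounded. The tests had been laid out for whole counts. Counts of 2 were more frequent than counts of 1, so mates of a pair appear to be counted separately, and bounds set against 3 counts may be too high. Floors cover counting error only, because the reads carry no molecular identifiers.

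All 12 libraries entered a single model with 4 group means in edgeR 4.0.16 (R 4.3.3, TMM, filterByExpr, robust quasi-likelihood F test), which tested 16838 of 26925 genes with a count. The Benjamini-Hochberg adjustment covered every gene tested, and an adjusted p under 0.1 was called. Each SE is the absolute log2 change over the square root of its F. The biological coefficient of variation was 5.70%. The fit was tested on simulated data. The members and the lists were chosen with earlier results of these data known. The lists were written from memory, and their genes are named by rule, as the 3 largest rises and 3 largest falls called per list and comparison among those with a mean of at least 50 counts, beside ARNTL, ARNT, EPAS1, HIF1A and VHL. Only some of those named by the rule are printed. ORAOV1, ARHGEF39 and SRFBP1 were named for their overlap with a member. Promoter sequences are from RefSeq. Alternatives were other scaling, no filter, DESeq2 1.42.0, limma-voom (limma 3.58.1), fits of the compared groups only, a replicate block, halved counts, a stricter threshold, a test against a fold of 1.5 and leaving out each library.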

Additional observations from a re-analysis of the deposited data

Results flagged for a closer look

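The effect of shBMAL1 differed between 786O and WT8, by the interaction test of edgeR, for 7 of the 9 genes tested. The interaction on the log2 scale was -2.32 for NDRG1, -1.75 for VEGFA, -1.70 for CA12, -1.39 for ADM, -1.23 for CCND1 and -1.18 for TGFA, and 0.37 for STC2. Over all genes, 28.5% had a negative and 27.4% a positive call for the interaction, so such a difference was common in these data. Each of the 3 WT8 shBMAL1 libraries lay below each WT8 shControl library for these 7 genes. VEGFA, CA12 and ADM were higher with shBMAL1 in every 786O library, and the other 4 were lower in every one. The share of all genes whose libraries separate in this way was not counted, so the separation is not particular to these genes as far as is known. Groups of 3 libraries were not searched for outlying samples.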

How the results depend on the processing

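The 9 genes kept their direction under each alternative in which they were called. Of 1023 values of single genes under the alternatives, 997 kept their side of the threshold and 26 lost it. Tested against a fold of 1.5, 1 gene stayed called with shBMAL1 in 786O, where most changes were slight. The share of all genes called at that fold was not counted. The counts of genes called, which were 9, 8, 9, 9 and 7 for shBMAL1 in 786O, shBMAL1 in WT8, the lines with shControl, the lines with shBMAL1 and the interaction, were the same with a replicate block. The labels give replicate numbers, but deviations of same-numbered libraries from their group means correlated with r of -0.0572 to 0.0684 over 18 pairs, and 4 of 18 had their own number as the highest, so the numbers were not taken as pairs. LOX lost its call with shBMAL1 in both lines at an adjusted p under 0.01. In WT8 it also lost its call under upper quartile scaling (log2 change 0.90), limma-voom (1.05) and halved counts (1.08), and it was not tested with WT8 alone. Without the filter, CXCR4 was called lower in WT8 than in 786O with shControl (adjusted p = 0.00678), which rests on 13 counts in 786O and 0 in WT8. Its other comparisons were not called there. The bound of CA9 between lines with shControl was 2.23-fold without the 786O control library with 22 counts. Depth limits CA9, LOX and CXCR4, and CA9 in WT8 allows bounds only.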
